A study of Homo sapiens with 12 samples.

Results

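The 9 genes followed here belong to the p53 feedback circuit and were measured in RBE cells, an established human cholangiocarcinoma (bile duct cancer) line: MDM2, MDM4, RCHY1, PPM1D, CCNG1, PHLDA3, TP53INP1, PML and TP73. They were taken by symbol from the deposited gene table, where each of the 9 had 1 entry among 55773, and all 9 were among the 15691 entries that held enough counts to be tested. Poly(A) RNA was sequenced in 12 libraries, 3 in each of 4 groups. Cells of the vehicle group received DMSO for 22 days and those of the AG120 group 5 µM AG-120 (ivosidenib, an inhibitor of mutant IDH1 that stops production of the metabolite 2-hydroxyglutarate). The vehicle_Nutlin and AG120_Nutlin groups had the same pretreatments, followed by 72 hours of 5 µM Nutlin, which occupies the p53-binding pocket of MDM2 and so frees p53. Per the sample titles, the vehicle and AG120 groups had DMSO in place of Nutlin after the pretreatment. All groups are 1 cell line, and no label says that replicates came from separate cultures. The p-values therefore measure only how far these samples spread, which may be technical.

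p53 is kept low by proteins that it induces itself. MDM2, RCHY1 and MDM4 act on p53 as ubiquitin ligases or as a ligase partner, and PPM1D (WIP1) and cyclin G1 work through dephosphorylation. TP53INP1 and PML act in the other direction and help p53 to reach full activity. PHLDA3 restrains AKT, and TP73 encodes p73, a relative of p53 with a set of targets in common with it.

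The libraries held 16840161 to 27499433 counts, with a median of 19221201. Replicates 2 and 3 of vehicle_Nutlin and AG120 replicate 1 are treated here as the 3 libraries that stood apart from their groups. In vehicle_Nutlin, 7.58%, 11.8% and 15% of genes lay over 2-fold from the other libraries of the group (replicates 1, 2 and 3), against 4.64%, 2.47% and 3.10% in AG120 and 1.77% to 2.32% in vehicle and AG120_Nutlin. The 3 libraries were taken over from an earlier analysis of these data, and by this measure vehicle_Nutlin replicate 1 deviated more than AG120 replicate 1. In vehicle_Nutlin, replicates 1 and 2 were nearer to each other (chi-square per degree of freedom 25.6) than to replicate 3 (120 and 149). By that second measure replicate 3 alone stood apart in vehicle_Nutlin. The deviation of a library from its group also followed transcript length, with Spearman correlations across genes of 0.33, 0.19 and -0.33 in vehicle_Nutlin replicates 1 to 3, and of 0.41, -0.23 and -0.39 in AG120. The part of these shifts in each value was not tested, and the calls of the 9 genes are given with and without the libraries where that changes them. Omitting all 3 libraries leaves 1 vehicle_Nutlin library, which is then assumed to vary like the other groups. The 5 biliary markers were detected in every group, with a sum of 2680 to 4500 CPM (read counts scaled to library size), led by KRT7 and KRT19. With Nutlin 1 of the 5 was higher and 2 were lower in each pretreatment, by the test described below. KRT7 ran from 1500 to 1960 CPM without Nutlin and from 470 to 1080 CPM with it. KRT19 ran from 1380 to 1530 CPM in vehicle and from 2460 to 3260 CPM in vehicle_Nutlin. Of 3 epithelial markers, 0 were higher and 2 were lower with Nutlin in each pretreatment. Endothelial and leukocyte markers summed to at most 1.06 CPM. The fibroblast list summed to 36.0 to 43.4 CPM in the groups without Nutlin and to 2.41 to 5.29 CPM with it, nearly all of it COL1A1 and PDGFRB, while DCN and LUM were at 0 in every library. The hepatocyte list ran from 114 to 167 CPM without Nutlin and from 258 to 329 CPM with it, almost all from SERPINA1. The part of these markers in the results below was not tested. In bulk RNA, fewer cells of a kind and less RNA per cell cannot be told apart.

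The starts of 2 members are shown because MDM2 and TP73 made the largest moves of the 9 genes, in opposite directions. The part of the motifs in these moves was not tested. RefSeq gave promoter windows (GRCh38.p14, 250 bases before to 50 after a start) for 6 of the 9 members, 15 windows in all. A p53 full site was counted as 2 adjacent copies of the p53 consensus decamer with at most 3 mismatches in 20 bases, which 5.20% of 35116 windows hold (0.65% with at most 2 mismatches). An E2F motif was TTTCCCGC, TTTCGCGC, TTTGCCGC or TTTGGCGC on either strand, which 3.31% hold. The stretch at chr12:68807922-68807977 before the upstream start of MDM2 (plus strand) has an E2F motif on the minus strand. The one before its internal start at chr12:68808893-68809010 (plus strand) has a p53 full site with 2 mismatches and another with 3, in capitals below. The stretch at chr1:3652266-3652318 before the first start of TP73 (plus strand) has the same E2F motif as MDM2, also on the minus strand, and the one at chr1:3690566-3690645 before its internal start has a p53 full site with 2 mismatches. Capitals mark these matches.
MDM2 upstream start: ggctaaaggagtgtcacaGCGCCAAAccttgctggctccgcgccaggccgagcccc
MDM2 internal start: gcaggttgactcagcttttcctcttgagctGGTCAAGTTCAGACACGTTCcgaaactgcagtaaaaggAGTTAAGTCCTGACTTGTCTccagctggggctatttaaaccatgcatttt
TP73 first start: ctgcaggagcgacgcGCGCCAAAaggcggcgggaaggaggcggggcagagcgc
TP73 internal start: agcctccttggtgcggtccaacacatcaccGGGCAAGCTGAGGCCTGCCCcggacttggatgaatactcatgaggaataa
The windows of MDM4, RCHY1, PPM1D and CCNG1 held neither motif by these rules, and the window of the upstream start of MDM2 held no p53 full site. A match is a stretch of letters, and no match says only that these letters are not in this window. The counts are per gene and do not separate the starts of TP73 or of MDM2.

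Nutlin moved most of the circuit in vehicle cells. Of the 9 genes, 7 passed the test (edgeR quasi-likelihood, Benjamini-Hochberg adjusted p of at most 0.05 over all tested genes), 6 higher and 1 lower. Over all genes, 53.9% passed in this comparison, 26.8% higher and 27.1% lower. The median log2 fold change was 0.93 over the 9 genes and -0.015 over all tested genes. In AG-120 cells 6 of the 9 passed, 5 higher and 1 lower, where 55.7% of all genes passed (27.0% higher and 28.8% lower). There the median was 2.15 over the 9 genes and 0.001 over all. Both medians of the 9 genes are the value of MDM4. Its log2 fold change in vehicle cells ran from 0.32 to 1.65 with the libraries and settings used. In the difference between the responses 0 of the 9 genes passed, so the 2 medians do not show a stronger response in AG-120 cells. The counts of listed genes in the 2 Nutlin responses below are to be read against the shares over all genes given here. MDM2, PPM1D, PHLDA3 and TP53INP1 rose and TP73 fell in both responses. The members described below are given as TMM-scaled CPM of replicates 1, 2 and 3, and are compared only within a gene.

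**Figure D1:**
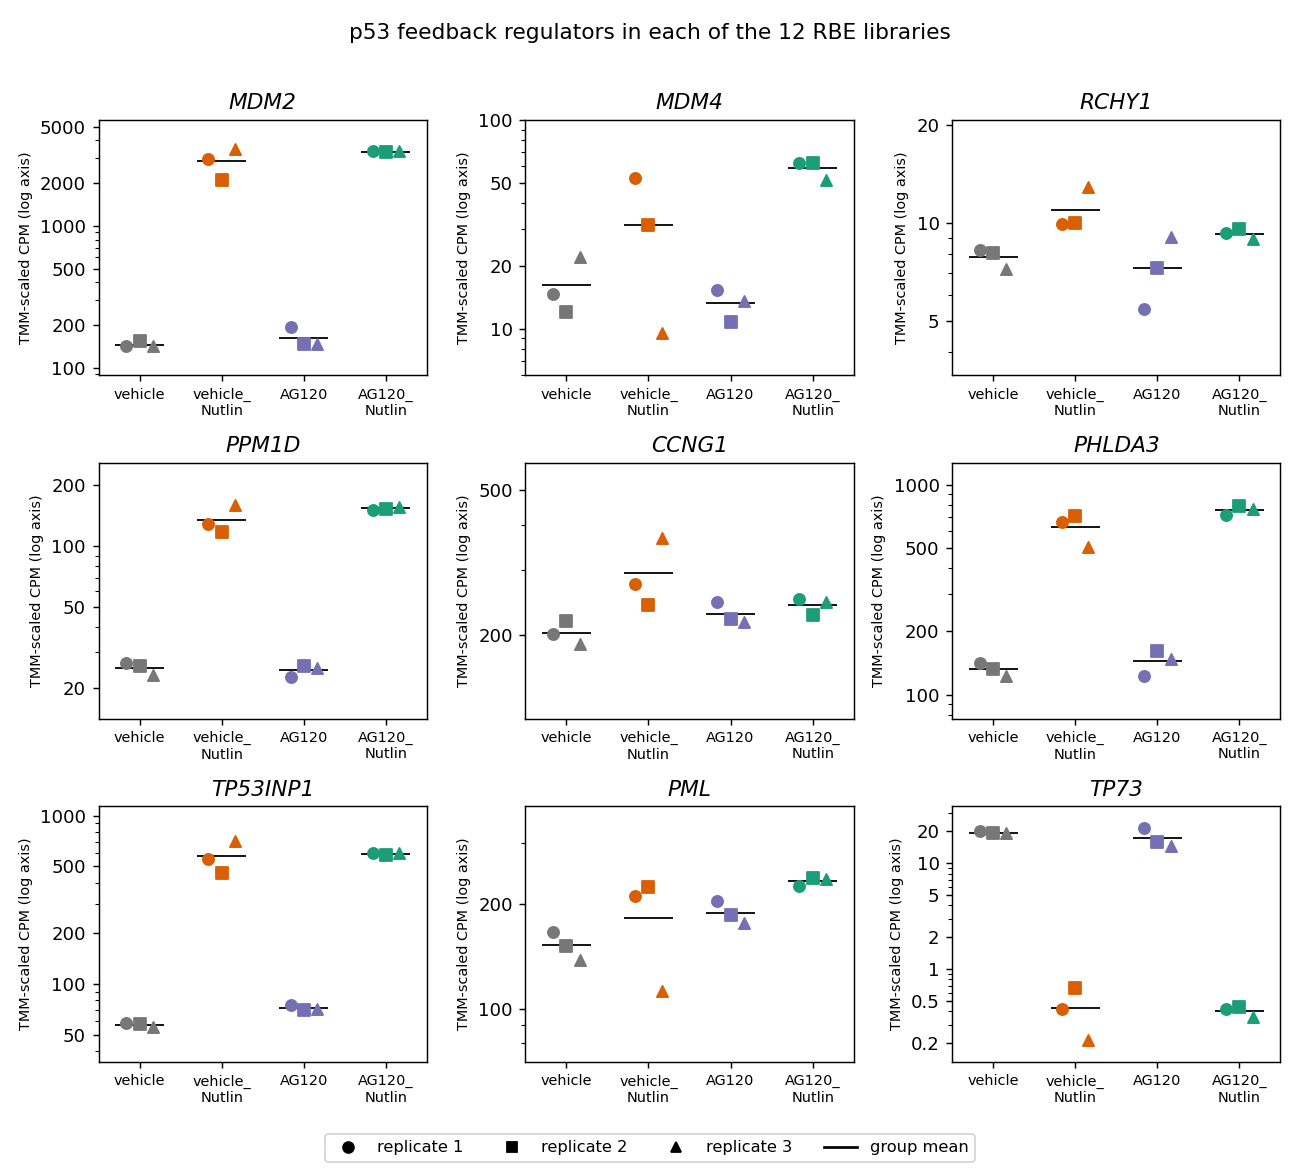
TMM-scaled CPM (log axis, its own range in each panel) of the 9 genes in the 12 libraries. Points are libraries, with a shape per replicate, and lines are group means (n = 3). MDM2, PPM1D, PHLDA3 and TP53INP1 are high and TP73 is low in all 6 Nutlin libraries, while vehicle_Nutlin replicate 3 is the lowest of its group for MDM4, PML and PHLDA3.

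MDM2 (hg19 chromosome 12, 69201956 to 69239214), the ubiquitin ligase that marks p53 for destruction, stood at 142, 154 and 142 CPM in vehicle. With Nutlin it stood at 2951, 2107 and 3484 CPM. In AG120 it was at 194, 148 and 148 CPM, and in AG120_Nutlin at 3350, 3324 and 3354 CPM. Every Nutlin library was above every library without it, and the coefficient of variation was 0.48% in AG120_Nutlin and 24.4% in vehicle_Nutlin. MDM2 rose 19.5-fold in vehicle cells (log2 4.29, SE 0.19, edgeR adjusted p = 1.03e-09) and 20.5-fold in AG-120 cells (log2 4.36, SE 0.19, edgeR adjusted p = 7.97e-10). The last 3238 bases of MDM2 overlap the gene for carboxypeptidase M, which held 201 to 1230 counts per library against at least 2722 for MDM2.

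MDM4 (chromosome 1, 204485511 to 204542871), which binds p53 and MDM2 and blocks p53 without being a strong ligase itself, was the least even member. It stood at 14.7, 12.1 and 22.0 CPM in vehicle and at 53.1, 31.3 and 9.58 CPM in vehicle_Nutlin. It stood at 15.3, 10.8 and 13.7 CPM in AG120 and at 62.2, 62.5 and 51.6 CPM in AG120_Nutlin. Of the vehicle_Nutlin libraries, replicate 3 fell below all vehicle libraries and replicates 1 and 2 were above them. MDM4 rose 4.43-fold in AG-120 cells (log2 2.15, SE 0.44, edgeR adjusted p = 0.0011). In vehicle cells its log2 fold change of 0.93 (95% interval 0.001 to 1.86) did not pass the test, with an edgeR adjusted p of 0.085. Without vehicle_Nutlin replicate 3 it passed, at 1.35 (edgeR adjusted p = 0.00013), and without vehicle_Nutlin replicate 1 the estimate was 0.32. It also passed with all 12 libraries when no filter on low counts was used (0.91, edgeR adjusted p = 1.15e-05). The ratio of MDM2 to MDM4 counts, not corrected for length, ran from 6.43 to 13.7 in the 6 libraries without Nutlin. It ran from 53.2 to 67.4 in 5 of the Nutlin libraries and was 364 in vehicle_Nutlin replicate 3.

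RCHY1 (PIRH2; chromosome 4, 76404247 to 76439974), another ligase of p53, was measured on 127 to 302 counts per library and moved little. It stood at 8.27, 8.09 and 7.22 CPM in vehicle and at 9.90, 9.95 and 12.9 CPM in vehicle_Nutlin. In AG120 it stood at 5.44, 7.26 and 9.07 CPM, and in AG120_Nutlin at 9.28, 9.57 and 8.94 CPM. The vehicle and vehicle_Nutlin libraries did not overlap, and AG120 replicate 3 lay within the range of AG120_Nutlin. The entry of RCHY1 overlaps the gene THAP6 by 819 bases, and THAP6 held 114 to 325 counts per library, about as many as RCHY1. The part of this overlap in the RCHY1 counts was not tested. RCHY1 rose 1.39-fold in vehicle cells (log2 0.48, SE 0.18, edgeR adjusted p = 0.037). That call was lost in 10 of 21 alternatives, among them leaving out vehicle replicate 1, 2 or 3, AG120_Nutlin replicate 1 or 3, or vehicle_Nutlin replicate 3, where the log2 fold change was 0.33 (edgeR adjusted p = 0.12). In AG-120 cells the log2 fold change of 0.36 (95% interval -0.04 to 0.75) did not pass (edgeR adjusted p = 0.11), and it passed at 0.55 without AG120 replicate 3 (edgeR adjusted p = 0.022). The 2 RING relatives of RCHY1 that were listed, RFFL and RNF34, passed in neither response, with log2 fold changes between -0.14 and 0.22. Without the 3 libraries that stood apart RFFL passed in AG-120 cells (0.25, edgeR adjusted p = 0.030).

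PPM1D (chromosome 17, 58677544 to 58741849), the phosphatase WIP1 that reverses the activating phosphorylations of p53 and of its upstream kinases, separated the groups cleanly. It stood at 26.5, 25.6 and 23.3 CPM in vehicle and at 128, 117 and 160 CPM in vehicle_Nutlin. It stood at 22.7, 25.7 and 25.2 CPM in AG120 and at 151, 153 and 156 CPM in AG120_Nutlin. No Nutlin library overlapped those without it. PPM1D rose 5.38-fold in vehicle cells (log2 2.43, SE 0.12, edgeR adjusted p = 3.19e-09) and 6.26-fold in AG-120 cells (log2 2.65, SE 0.12, edgeR adjusted p = 1.39e-09). Of its 12 tested relatives among the PP2C phosphatases, 5 rose and 5 fell in vehicle cells, and 3 rose and 2 fell in AG-120 cells (3 and 4 without vehicle_Nutlin replicate 3, 4 and 5 without all 3 libraries that stood apart). PPM1A rose in both (log2 1.43 and 1.44) and PPM1G fell in both (-0.68 and -0.56).

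CCNG1 (chromosome 5, 162864575 to 162873157) encodes cyclin G1, which brings the phosphatase PP2A to MDM2. It stood at 200, 219 and 188 CPM in vehicle and at 276, 241 and 369 CPM in vehicle_Nutlin. In AG120 it stood at 246, 221 and 217 CPM, and in AG120_Nutlin at 250, 226 and 245 CPM. The vehicle_Nutlin libraries were all above vehicle, while AG120 and AG120_Nutlin overlapped. CCNG1 rose 1.46-fold in vehicle cells (log2 0.55, SE 0.14, edgeR adjusted p = 0.0044), a call that was kept in all 21 alternatives, with log2 fold changes of 0.35 to 0.68. In AG-120 cells the log2 fold change was 0.08 (95% interval -0.22 to 0.37; edgeR adjusted p = 0.65). Of 10 tested cyclin G partners and PP2A subunits, 3 rose and 2 fell in vehicle cells, and 4 rose and 2 fell in AG-120 cells. CCNG2, the paralogue of CCNG1, rose by 1.08 and 1.00 (log2), and the PP2A regulatory subunit PPP2R5B by 1.5 and 1.69.

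PHLDA3 (chromosome 1, 201434620 to 201438365) encodes a small pleckstrin-homology protein that competes with AKT for membrane lipids. It stood at 142, 132 and 123 CPM in vehicle and at 666, 708 and 506 CPM in vehicle_Nutlin. It stood at 123, 162 and 147 CPM in AG120 and at 713, 790 and 764 CPM in AG120_Nutlin. The Nutlin libraries lay above all others. PHLDA3 rose 4.74-fold in vehicle cells (log2 2.24, SE 0.14, edgeR adjusted p = 3.01e-08) and 5.25-fold in AG-120 cells (log2 2.39, SE 0.14, edgeR adjusted p = 1.45e-08). Of its 2 family members, PHLDA1 had log2 fold changes of 0.30 (edgeR adjusted p = 0.028, lost in 7 alternatives) and 0.10, and PHLDA2 of 0.03 and 0.44, neither past the threshold. PHLDA2 depended on the libraries. With the 3 that stood apart omitted, its log2 fold change was -0.185 in vehicle cells, where 1 vehicle_Nutlin library is left, and 0.187 in AG-120 cells. PHLDA2 passed in AG-120 cells in 7 alternatives, among them without vehicle_Nutlin replicate 3 (0.43) and without AG120 replicate 2 (0.59) or 3 (0.58).

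TP53INP1 encodes a stress protein that helps the kinase HIPK2 to phosphorylate p53 and also binds proteins of the autophagy machinery. It stood at 58.5, 58.1 and 55.4 CPM in vehicle and at 552, 458 and 708 CPM in vehicle_Nutlin. It stood at 75.7, 70.2 and 71.1 CPM in AG120 and at 601, 580 and 603 CPM in AG120_Nutlin. The Nutlin libraries were far above the others, and the lowest AG120 library was above the highest vehicle library. TP53INP1 rose 9.99-fold in vehicle cells (log2 3.32, SE 0.14, edgeR adjusted p = 7.84e-10) and 8.22-fold in AG-120 cells (log2 3.04, SE 0.14, edgeR adjusted p = 1.39e-09). Its entry lies within NDUFAF6, which held 275 to 460 counts per library against at least 1027 for TP53INP1. All 6 tested genes of its family and autophagy partners rose in both responses, with median log2 fold changes of 1.37 and 1.26. TP53INP2 rose by 1.97 and 1.78, and the ATG8-type proteins GABARAPL1 by 1.49 and 1.58 and GABARAPL2 by 1.53 and 1.52. Without the 3 libraries that stood apart, 5 rose and 0 fell of 7 tested in vehicle cells, and 6 rose and 1 fell in AG-120 cells.

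PML (chromosome 15, 74287014 to 74340153) builds the nuclear bodies in which p53 is modified. It stood at 166, 152 and 138 CPM in vehicle and at 212, 224 and 113 CPM in vehicle_Nutlin. It stood at 204, 187 and 177 CPM in AG120 and at 225, 239 and 236 CPM in AG120_Nutlin. As with MDM4, vehicle_Nutlin replicate 3 was below every vehicle library and replicates 1 and 2 were above them, whereas AG120 and AG120_Nutlin did not overlap. PML passed in neither response, with a log2 fold change of 0.27 in vehicle cells (95% interval -0.16 to 0.69; edgeR adjusted p = 0.27) and 0.30 in AG-120 cells (-0.12 to 0.72; edgeR adjusted p = 0.21). Without vehicle_Nutlin replicate 3 it passed in both, at 0.51 (edgeR adjusted p = 8.57e-05) and 0.29 (edgeR adjusted p = 0.0034). The comparison in AG-120 cells holds none of that library, but the model estimates the spread over all 4 groups, and in a fit of only the 2 groups compared PML also passed in AG-120 cells (0.30, edgeR adjusted p = 0.0053). Of 13 tested nuclear body genes, 1 rose and 5 fell in vehicle cells (2 and 6 without vehicle_Nutlin replicate 3, 3 and 6 without the 3 libraries), and 4 rose and 5 fell in AG-120 cells. SP110 rose by 0.89 and 0.59 (log2), and DAXX, a partner of PML and p53, fell by 0.58 in each.

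TP73 (chromosome 1, 3569084 to 3652765) moved against the others. It stood at 20.1, 19.2 and 19.3 CPM in vehicle (400, 340 and 562 counts) and at 0.42, 0.66 and 0.21 CPM in vehicle_Nutlin (8, 11 and 5 counts). It stood at 21.6, 15.9 and 14.7 CPM in AG120 (503, 324 and 279 counts) and at 0.42, 0.44 and 0.35 CPM in AG120_Nutlin (7, 9 and 6 counts). All 6 Nutlin libraries were far below all others. TP73 fell 46.8-fold in vehicle cells (log2 -5.55, SE 0.27, edgeR adjusted p = 2.61e-09) and 42.1-fold in AG-120 cells (log2 -5.39, SE 0.27, edgeR adjusted p = 3.23e-09). TP73 overlaps its antisense gene TP73-AS1 by 218 bases and WRAP73 by 242, and the use of strand in counting is not given in the sources used here. TP73-AS1 had log2 fold changes of -0.12 and -0.23 that did not pass. Of the other p53 family genes, TP63 was too low to be tested. Of 12 tested E2F and G1/S genes, 9 fell and 1 rose in vehicle cells (9 and 2 without vehicle_Nutlin replicate 3), and 9 fell and 2 rose in AG-120 cells. The median log2 fold changes of these 12 genes were -3.76 and -3.27. The part of E2F in the fall of TP73 was not tested. E2F2 fell (log2 -7.56 and -7.43), as did the thymidine kinase gene TK1 (-6.48 and -7.13) and the replication licensing gene CDC6 (-5.94 and -6.25), while RB1 rose by 0.75 and 0.90.

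**Figure D2:**
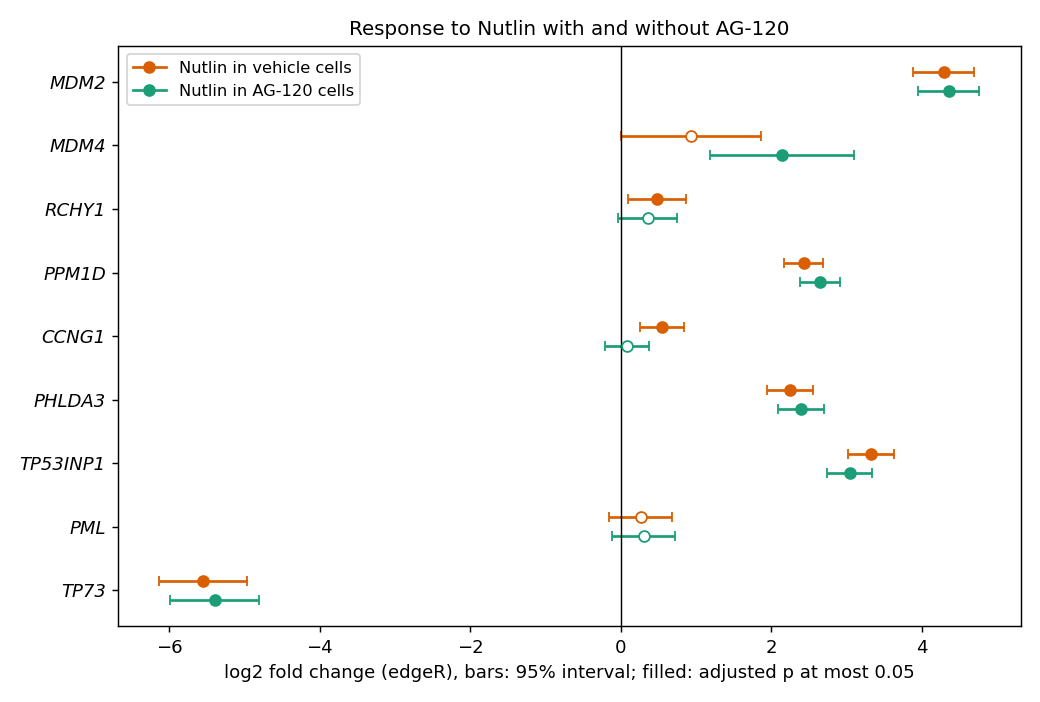
Log2 fold change of each of the 9 genes with Nutlin in vehicle cells (orange) and in AG-120 cells (green), with 95% intervals. Filled points passed the test. TP73 lies below -5 and MDM2 above 4 in both, while MDM4 has the widest intervals of the genes above 0 and CCNG1 and RCHY1 passed only in vehicle cells, a difference that itself did not pass.

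Single libraries weighed unevenly on the calls. The responses of MDM2, PPM1D, PHLDA3, TP53INP1 and TP73 passed in all alternatives in both pretreatments. CCNG1 passed in vehicle cells in all 21 alternatives and in AG-120 cells in 0. For MDM4, PML and RCHY1 the call in vehicle cells changed without vehicle_Nutlin replicate 3, where MDM4 and PML were lowest and RCHY1 highest, and MDM4 and RCHY1 also changed under the other settings given above. Without that library 8 of the 9 genes passed in vehicle cells, as did 9348 genes in all, against 8464 with it. Without the 3 libraries that stood apart 8 passed as well, and 9582 genes in all. In that last fit MDM4 had a log2 fold change of 1.65 (edgeR adjusted p = 3.34e-07) and PML one of 0.46 (edgeR adjusted p = 3.21e-05). It leaves 1 vehicle_Nutlin library, which is assumed to vary like the other groups.

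**Figure D3:**
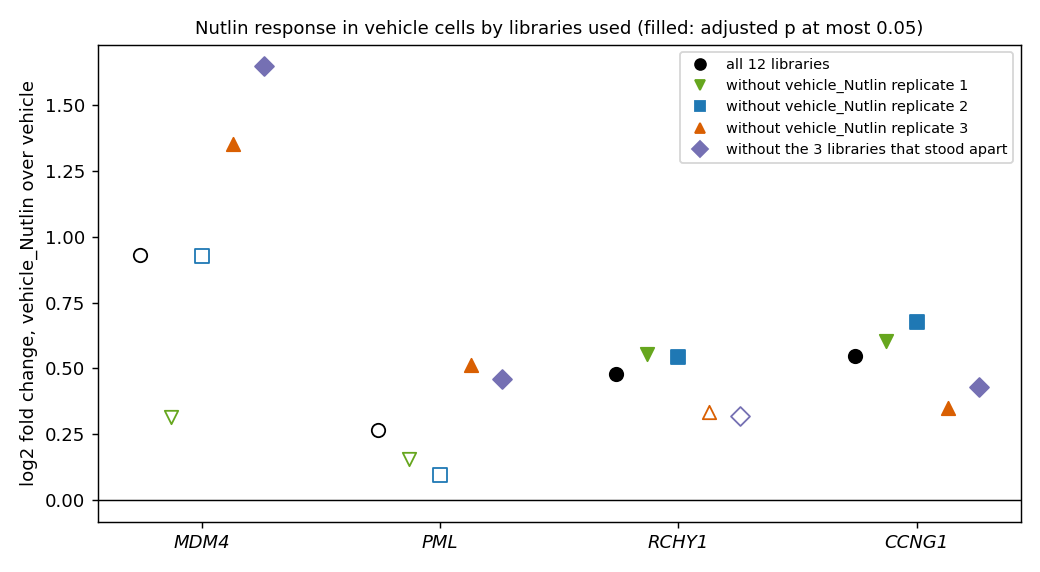
Log2 fold change of MDM4, PML, RCHY1 and CCNG1 with Nutlin in vehicle cells, from all 12 libraries and after leaving out each vehicle_Nutlin library or the 3 libraries that stood apart. Filled points passed the test. MDM4 moves from 0.32 to 1.65 and CCNG1 passes in each fit.

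AG-120 without Nutlin moved none of the 9 genes past the threshold in edgeR. Over all genes 0.051% passed. At an unadjusted p under 0.05 there was 1 member, TP53INP1, with a log2 fold change of 0.34 (95% interval 0.05 to 0.62; edgeR adjusted p = 0.53). The AG120 and vehicle libraries did not overlap for TP53INP1 and PML, both higher with AG-120, against 21.8% of all genes in either direction. PML had a log2 fold change of 0.31 (95% interval -0.11 to 0.73). TP53INP1 passed without vehicle_Nutlin replicate 3 (0.34, edgeR adjusted p = 0.039), a fit in which 241 genes passed against 8 with all libraries. Without the 3 libraries that stood apart 908 genes passed, 3 of them members: TP53INP1 at 0.30 (edgeR adjusted p = 0.0018), PML at 0.26 (edgeR adjusted p = 0.017) and PHLDA3 at 0.22 (edgeR adjusted p = 0.042). For MDM2 the interval ran from -0.19 to 0.52 and for PPM1D from -0.29 to 0.22.

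AG-120 in the presence of Nutlin also moved none of the 9 past the threshold in edgeR, where 2.36% of all genes passed. At an unadjusted p under 0.05 there was 1 member, CCNG1, with a log2 fold change of -0.30 (95% interval -0.59 to -0.002; edgeR adjusted p = 0.25). The groups did not overlap for 3 members, PHLDA3 and PML higher and RCHY1 lower in AG120_Nutlin, against 28.3% of all genes. Their log2 fold changes were 0.27 for PHLDA3 (95% interval -0.02 to 0.56), 0.35 for PML (-0.07 to 0.77) and -0.24 for RCHY1 (-0.63 to 0.15). MDM4 had the highest estimate, 0.91 (0.00 to 1.83; edgeR adjusted p = 0.26), and the estimate or its call changed with the libraries and the filter: 0.91 with no filter on low counts (edgeR adjusted p = 0.00020), 1.54 without vehicle_Nutlin replicate 1 (edgeR adjusted p = 0.044), 0.48 without replicate 3 and 0.16 with vehicle_Nutlin replicates 2 and 3 and AG120 replicate 1 all omitted. PPM1D passed without vehicle_Nutlin replicate 3 (0.32, edgeR adjusted p = 0.034). In the fit that omits those 3 libraries, which leaves 1 vehicle_Nutlin library, its log2 fold change was 0.27. For MDM2 the interval ran from -0.12 to 0.59, and for TP53INP1 from -0.22 to 0.33.

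**Figure D4:**
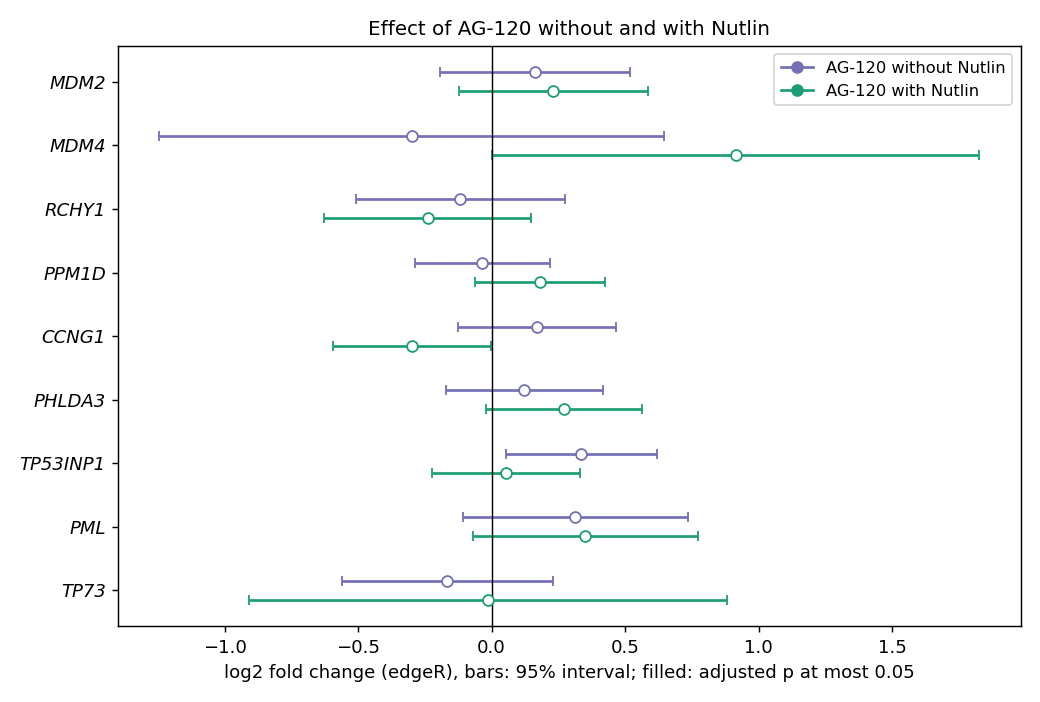
Log2 fold change of the 9 genes with AG-120, without Nutlin (purple) and with it (green), with 95% intervals. No point passed the test (all are open), and the intervals of MDM4 and of TP73 with Nutlin are the widest.

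The Nutlin responses of vehicle and AG-120 cells were also compared directly by the interaction term, which asks whether AG-120 changed the size of the response. None of the 9 passed in edgeR, where 0.363% of all genes did. CCNG1, with an unadjusted p of 0.031, was the only one of the 9 under 0.05: its response was lower in AG-120 cells by 0.47 on the log2 scale (95% interval -0.89 to -0.05; edgeR adjusted p = 0.40). MDM4 had a difference of 1.21 (95% interval -0.10 to 2.53; edgeR adjusted p = 0.49). It passed in the fit without a filter on low counts (1.22, edgeR adjusted p = 0.0016). The intervals were -0.43 to 0.57 for MDM2, -0.13 to 0.57 for PPM1D, -0.26 to 0.56 for PHLDA3 and -0.68 to 0.11 for TP53INP1.

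Across the 12 libraries MDM2, PPM1D, TP53INP1, PHLDA3 and, in reverse, TP73 shared a pattern of log2 CPM. It is given as a description, since the libraries fall mostly into those with and without Nutlin and share their depth and length shifts. The other members did not share a second pattern. MDM2, PPM1D and TP53INP1 had Pearson correlations of 0.99 or more with each other, PHLDA3 0.98 with each of them, and TP73 -0.994 to -0.997 with those 3. MDM4 correlated at 0.70 with MDM2 and at 0.75 with PML, and at 0.00 with CCNG1. RCHY1 correlated at 0.61 with CCNG1, while PML correlated at -0.155 with RCHY1 and at -0.178 with CCNG1. Of 10691 genes compared, those nearest to MDM2 were ZNF561, FAM212B and PCBP4 (Pearson 0.999 each), and 1146 genes had a correlation over 0.95 with MDM2. The nearest to PPM1D were PRKAB1, GBE1 and STXBP3, to PHLDA3 GRN, DRAXIN and SLC9A3R1, and to TP53INP1 RETSAT, GCNT3 and DDB2. TP73 was nearest to POLD1, FOXM1 and BRCA1 (Pearson 0.998 each), genes of DNA replication, mitosis and repair, with 1052 genes over 0.95. MDM4, PML, RCHY1 and CCNG1 had few neighbours. MDM4 was nearest to NISCH (0.97), LCAT and C22orf23 with 26 genes over 0.95, PML to HSPG2 (0.98), FAM83H and MYO1E with 33, RCHY1 to C14orf119 (0.97), DYNLRB1 and SAP18 with 22, and CCNG1 to RPS23 (0.98), KCTD10 and ST13 with 7.

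The rest of the pathway was read from lists of genes. Over all tested genes, 26.8% passed higher and 27.1% lower in vehicle cells, and 27.0% and 28.8% in AG-120 cells. A list with shares near these does not stand out from all genes. All 18 tested members of a list of other p53 targets rose in both responses, with median log2 fold changes of 2.90 and 2.86 and no gene past the threshold in the difference between the responses. TP53I3 rose by 6.73 and 6.88, GDF15 by 5.31 and 5.47 and EDA2R by 5.04 and 5.60. MDM2 and TP53INP1 lay above the medians of this list, PPM1D and PHLDA3 below, and MDM4, CCNG1, RCHY1 and PML below in both responses. Of 21 ligases and deubiquitinases that act on p53 or MDM2, 8 rose and 4 fell in vehicle cells, and 10 rose and 4 fell in AG-120 cells. Among them USP2, a deubiquitinase of MDM2, rose by 2.63 and 2.66, and DTL, the substrate receptor of a cullin ligase, fell by 5.70 and 6.40. Of 15 kinases of the pathway, 4 rose and 7 fell in vehicle cells, and 4 rose and 6 fell in AG-120 cells: PLK3 rose by 2.65 and 2.94, and CHEK1 fell by 1.98 and 2.26. Of 19 cofactors and modifiers of p53, 4 rose and 6 fell, and 6 rose and 5 fell, in the same order, with ZNF385A up by 3.67 and 4.08 and ZMAT3 by 2.94 and 2.62. With AG-120, 0 genes of these 4 lists passed without or with Nutlin. Without vehicle_Nutlin replicate 3, 1 of the 18 other p53 targets passed higher with AG-120 without Nutlin and 1 with it. So did 1 cofactor without Nutlin and 1 kinase with it, where 241 and 683 of all genes passed. Omitting vehicle_Nutlin replicates 2 and 3 and AG120 replicate 1 brought further list genes past the threshold. That fit leaves 1 vehicle_Nutlin library, and more genes passed in it over all as well.

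Nucleolar and ribosomal proteins that bind MDM2 form the other arm of its control. Of 12 tested, 3 rose and 4 fell in vehicle cells, and 3 rose and 7 fell in AG-120 cells. RPS27L, itself a p53 target that binds MDM2, rose by 1.40 and 1.28, and the nucleolar proteins NCL and GNL3 fell by 1.27 and 1.02 in vehicle cells and by 1.35 and 1.22 in AG-120 cells. With Nutlin present, 5 of the 12 were lower in AG-120 than in vehicle cells, namely GNL3 (log2 -0.47), RPS7 (-0.72), RPL23 (-0.48) and, named after their values were seen, NPM1 (-0.46) and RPL11 (-0.40), and 0 were higher. In the same comparison 3 of the 12 E2F and G1/S genes were lower: TK1 (-0.88), CCNE1 (-0.71) and, named after its value was seen, E2F1 (-1.11). Over all genes 2.36% passed in this comparison, 371 genes with 68 of them higher. The calls of GNL3, RPS7, RPL23, TK1 and CCNE1 were lost in 7, 8, 10, 3 and 6 of 21 alternatives. All 5 were lost when only the 2 groups compared were fitted, and without AG120_Nutlin replicate 2 or 3. NPM1, RPL11 and E2F1 lay near the threshold (edgeR adjusted p = 0.049, 0.043 and 0.049), and the alternatives were not run for them. E2F1 stood at 1.33 to 2.23 CPM in AG120_Nutlin. Without vehicle_Nutlin replicate 3, 6 of the nucleolar list and 3 of the E2F list were lower with AG-120 in the presence of Nutlin. In that comparison 1 of the E2F list was higher, and 683 of all genes passed. Omitting the 3 libraries that stood apart brought more of both lists past the threshold, but that fit leaves 1 vehicle_Nutlin library. CDKN2A, whose ARF product binds MDM2, was too low to be tested. Of 13 tested interferon response genes, listed because PML is itself induced by interferon, 5 rose and 2 fell in vehicle cells, and 4 rose and 6 fell in AG-120 cells. TRIM22 rose by 4.71 and 3.82, which differed (log2 -0.89, edgeR adjusted p = 0.045, lost in 14 of 20 alternatives), and was higher with AG-120 without Nutlin (0.87, edgeR adjusted p = 0.035, lost in 12 of 21). STAT2 rose by 0.73 and 0.89, and OAS3 fell by 4.37 and 4.92.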

How the data were processed

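The members and the lists were chosen with earlier results of these data known. The deposited values are raw read counts per gene symbol that the authors made without normalization, per the file headers. The submitters' processing notes name Partek, STAR, HTSeq, DESeq2 and the build hg19. Their versions and roles, and the use of strand, are not given in the sources used here. Per the labels' protocols, poly(A) libraries were read as pairs of 150 bases.

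The analysis used edgeR 4.0.16 in R 4.3.3: filterByExpr on the 4 groups, TMM scaling, 1 quasi-likelihood model over all 12 libraries (glmQLFit, glmQLFTest), and Benjamini-Hochberg adjustment over the 15691 genes tested, with a threshold of 0.05. SE is the log2 fold change divided by the square root of F. The scripts were tested on simulated data. Intervals are 95% and cover the spread between samples. Levels are TMM-scaled CPM.

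Alternatives were DESeq2 1.42.0 or only its size factors, scaling by library totals, keeping all genes or those above 1 CPM in 3 libraries, the replicate block, a fit of the compared groups alone, and omission of each library or of the 3 that stood apart. Removing a length trend was added after seeing the data.

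All 9 members are named. Of each list, up to 3 genes per direction were eligible, by size of change among those called in both responses without overlap and with at least 5 CPM in a group. Lists of at most 4 genes were named whole, and up to 6 list genes called with AG-120 were named. For likeness, the 3 genes with the highest Pearson correlation of log2 CPM (prior count 2) were taken. Gene positions come from the deposited table, with 1 taken from its stop. Promoter sequences are from RefSeq.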

Additional observations from a re-analysis of the deposited data

Results flagged for a closer look

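The difference between the Nutlin responses of AG-120 and vehicle cells passed the test for TRIM22, an interferon-induced gene of the TRIM family that is also a p53 target. Without Nutlin its mean level was 3.17 CPM (SD 0.15, n = 3) after vehicle and 5.79 CPM (SD 0.60) after AG-120. With Nutlin the means were 83.5 CPM (SD 10.7) and 82.0 CPM (SD 2.80). The difference was -0.893 on the log2 scale (edgeR adjusted p = 0.045). It was lost in 14 of 20 alternatives, among them the replicate block, vehicle_Nutlin replicate 2 left out, and each vehicle, AG120 and AG120_Nutlin library left out.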

How the results depend on the processing

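The Nutlin responses of MDM2, PPM1D, PHLDA3, TP53INP1 and TP73 passed under all 21 alternatives in both pretreatments, and so did those of CCNG1 in vehicle and MDM4 in AG-120 cells. The number of members that passed ran from 6 to 8 in vehicle cells and from 6 to 7 in AG-120 cells. The labels do not say whether the replicate numbers pair the samples, and the data gave no sign of it: 1 of 18 same-numbered pairs had a correlation of deviations over 0.1. With 3 libraries per group this cannot exclude pairing. With the replicate block, 7, 6, 0, 0 and 0 members passed in the 5 comparisons, the same as without it.

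The number of genes that passed was less stable where it was small, and the cause was not tested. For AG-120 without Nutlin (8 genes) it was 108 with DESeq2, 104 with no filter, 13 with the 1 CPM filter, 4 with the replicate block, 29 with only the groups compared, 908 without the 3 libraries that stood apart and 19 with the length trend removed. Leaving out single libraries gave 1 to 241. For AG-120 with Nutlin (371 genes) it was 903 with DESeq2, 1272 with no filter, 211 with the replicate block, 15 with only the groups compared, 1374 without the 3 libraries and 846 with the length trend removed, and leaving out single libraries gave 61 to 1037. For the difference (57 genes) DESeq2 gave 223, no filter 283, the replicate block 32 and the fit without the 3 libraries 637, and leaving out single libraries gave 23 to 243.

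Some estimates changed sign, given here as log2 fold changes. Without the 3 libraries that stood apart, which leaves 1 vehicle_Nutlin library, the difference between responses was -0.031 for PHLDA3 and -0.108 for PML. In that fit the AG-120 effect without Nutlin was 0.025 for PPM1D and 0.06 for RCHY1. PHLDA2 had -0.185 there with Nutlin in vehicle cells, and -0.058 with library totals. With the length trend removed the difference was -0.024 for MDM2. Leaving out single libraries moved the AG-120 effect without Nutlin from -0.306 to 0.056 for RCHY1 and from -0.087 to 0.019 for PPM1D, and the effect with Nutlin from -0.085 to 0.235 for TP53INP1 and from -0.385 to 0.393 for TP73. It moved the difference from -0.109 to 0.235 for MDM2, from -0.298 to 0.068 for RCHY1, from -0.222 to 0.208 for PML and from -0.225 to 0.558 for TP73, and PHLDA2 in vehicle cells from -0.126 to 0.131.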
